A study of Homo sapiens with 16 samples.

Results

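The death receptors of multiple myeloma cells and the proteins that bind to them were followed as a group of 10 genes in the cell line LP-1, with and without extra cIAP2 and with and without bortezomib. The group holds the receptors FAS, TNFRSF10A, TNFRSF10B, TNFRSF10D, TNFRSF1A and TNFRSF1B, the adaptor FADD, the initiator caspases CASP8 and CASP10 and the inhibitor CFLAR. They were found on the arrays by matching the RefSeq accession of each probe to the gene symbol. All 10 genes were found, out of 20503 symbols matched, and they were represented by 19 of 50599 gene probes. Of these probes 18 passed the filter on signal, at least 1 for every gene, and the remaining probe belonged to CASP10. Where a gene had several probes, the one with the highest mean signal is described and the others are compared with it.

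Death receptors are members of the TNF receptor superfamily that carry a death domain in the cytoplasm. When a ligand clusters FAS or a TRAIL receptor, FADD is recruited to the death domains and brings CASP8 and CASP10 into a death-inducing signalling complex, in which the caspases activate one another. CFLAR, also known as c-FLIP, resembles a caspase and joins the same complex to limit that activation. TNF receptors instead first assemble a complex in which cIAP proteins attach ubiquitin to RIPK1, and this complex signals to NF-κB.

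LP-1 is a human multiple myeloma line without functional TRAF3. The LP-1-cIAP2-eGFP cells carry a lentiviral vector that expresses cIAP2 and eGFP, the control cells (LP-1-eGFP) carry the vector with eGFP alone, and each is a sorted pool of transduced cells. Both were left untreated or received 10 nM bortezomib, a proteasome inhibitor, and were collected after 6 h or 24 h. This gave 8 conditions with 2 biological replicates each, and every condition was hybridized to 2 single-colour arrays, 16 in all. Pools of cells were measured, so that fewer expressing cells and less RNA per cell cannot be told apart.

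Between 35.5% and 71.1% of the 58717 gene spots on an array were well above background, and at most 1 was saturated. The lowest share belonged to replicate 1 of LP-1-cIAP2-eGFP at 24 h of bortezomib, which also had the lowest median signal, 3.18 on the log2 scale before normalization. Over probes, its 2 replicates differed from each other with an SD of 1.48, against 0.495 to 0.773 in the other conditions. Where leaving out this array changed a call given below for the group, its value without the array is printed too.

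The lines had the profile of plasma cells. All 9 plasma cell and myeloma markers examined were well above background on at least 15 of the arrays, among them SDC1, TNFRSF17, IRF4, XBP1 and CD38. The defining B cell markers MS4A1 and PAX5 and the myeloid marker CSF1R were not well above background on any array. CD3D, CD3E, CD2, CD14, COL1A1 and KRT19 passed that test on 9 to 15 arrays, with median log2 signals of 5.06 to 6.38, EPCAM passed it on 2, and LYZ was not analysed here. CD2 and CD14 were highest, at 11.49 and 8.69, on the array that stood apart. The endogenous transcript of BIRC3, the gene of cIAP2, was lower in LP-1-cIAP2-eGFP by 1.16 log2 units (SE 0.0748, adjusted p = 7.42e-06). The difference was -1.59 and -1.55 in untreated cells at 6 h and 24 h, and -1.19 and -0.31 with bortezomib. Its probe detects only the endogenous transcript by the account of the study, so that it does not test the overexpression itself.

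**Figure D1:**
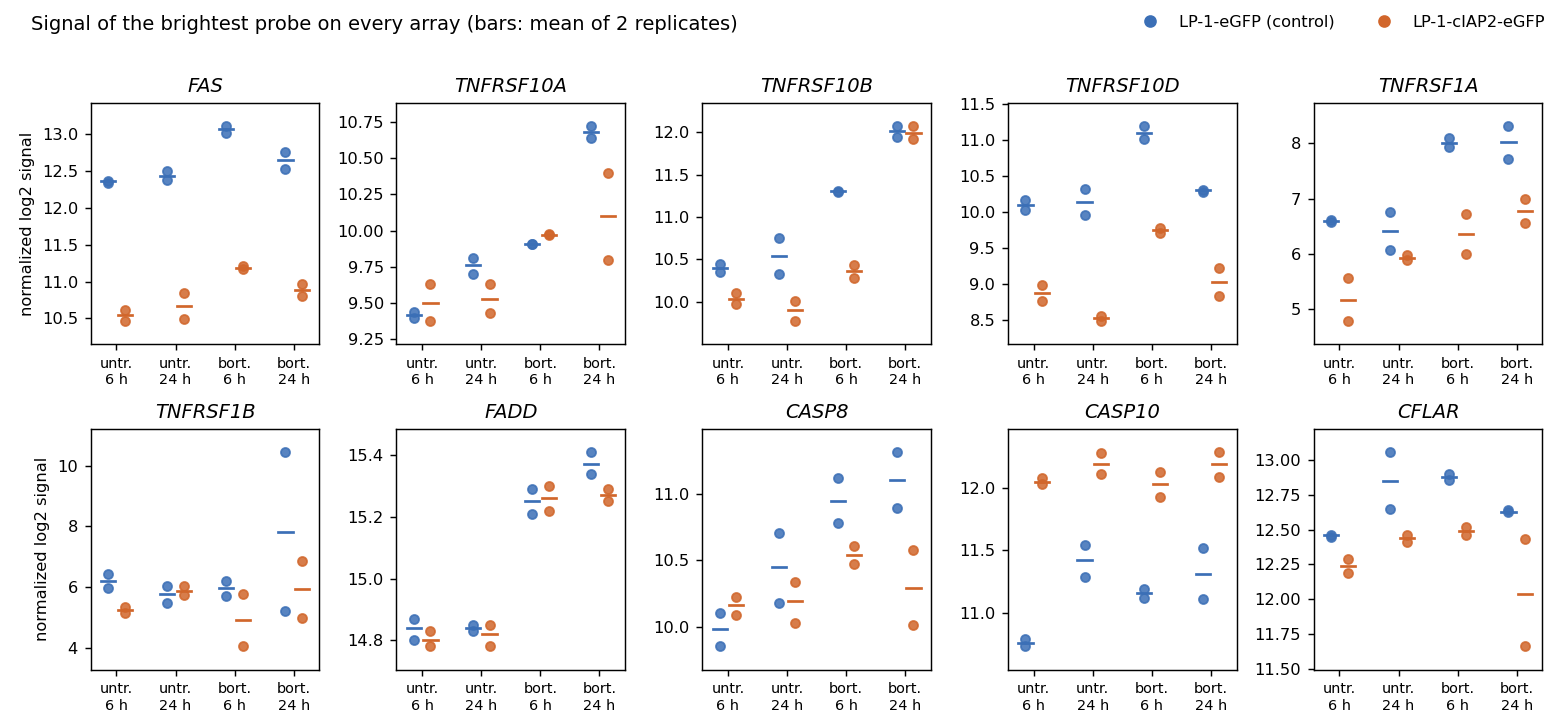
Normalized log2 signal of the brightest probe of each gene on every array, with points for the 2 replicates of a condition and bars for their mean (LP-1-eGFP in blue, LP-1-cIAP2-eGFP in orange; the y axes differ and do not start at 0). FAS and TNFRSF10D lay lower and CASP10 higher in LP-1-cIAP2-eGFP in every condition, while TNFRSF10B reached 12.01 and 11.99 in the lines at 24 h of bortezomib.

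The first question was how the lines differed. In LP-1-cIAP2-eGFP, 5 of the 10 genes were lower, namely FAS, TNFRSF10D, TNFRSF1A, TNFRSF10B and CFLAR, and 1 was higher, CASP10 (mean of the 4 combinations of treatment and time, limma, adjusted p under 0.05). By the same test 12.7% of all genes were lower and 9.04% higher. The median difference of the 10 genes was -0.45 on the log2 scale, against -0.01 over all genes. TNFRSF10A, TNFRSF1B, FADD and CASP8 did not pass. FAS was among the genes the study itself drew from these arrays, so its fall is not independent evidence.

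In single conditions the calls were fewer. FAS, TNFRSF10D and CASP10 passed in untreated cells at 6 h and at 24 h, when 3.09% and 2.77% of all probes passed. The same genes passed with bortezomib at 24 h (5.92% of probes). At 6 h of bortezomib (3.31% of probes) TNFRSF10B and TNFRSF1A passed too, a comparison in which each line lay on a slide of its own. With the slide as a block FAS (-2.05, adjusted p = 0.00175) and TNFRSF10D (-1.42, adjusted p = 0.0305) still passed there, whereas TNFRSF10B (-1.03, adjusted p = 0.0780), TNFRSF1A (-1.33, adjusted p = 0.274) and CASP10 (1.05, adjusted p = 0.0582) did not. The CASP10 call in untreated cells at 24 h was also lost with that block (0.86, adjusted p = 0.0511). In a fit that left out the array that stood apart, TNFRSF1A passed in untreated cells at 6 h (-1.42, adjusted p = 0.0454) and TNFRSF10B at 24 h (-0.65, adjusted p = 0.0458). The stricter rule in the Methods, an adjusted p under 0.001 together with more than 2-fold between untreated lines, kept FAS, TNFRSF10D and CASP10 and called 2.37% of all probes. The comparison of the lines as groups of 8 arrays, at p under 0.005 and over 2-fold, kept FAS, TNFRSF10D and TNFRSF1A and called 3.54%.

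**Figure D2:**
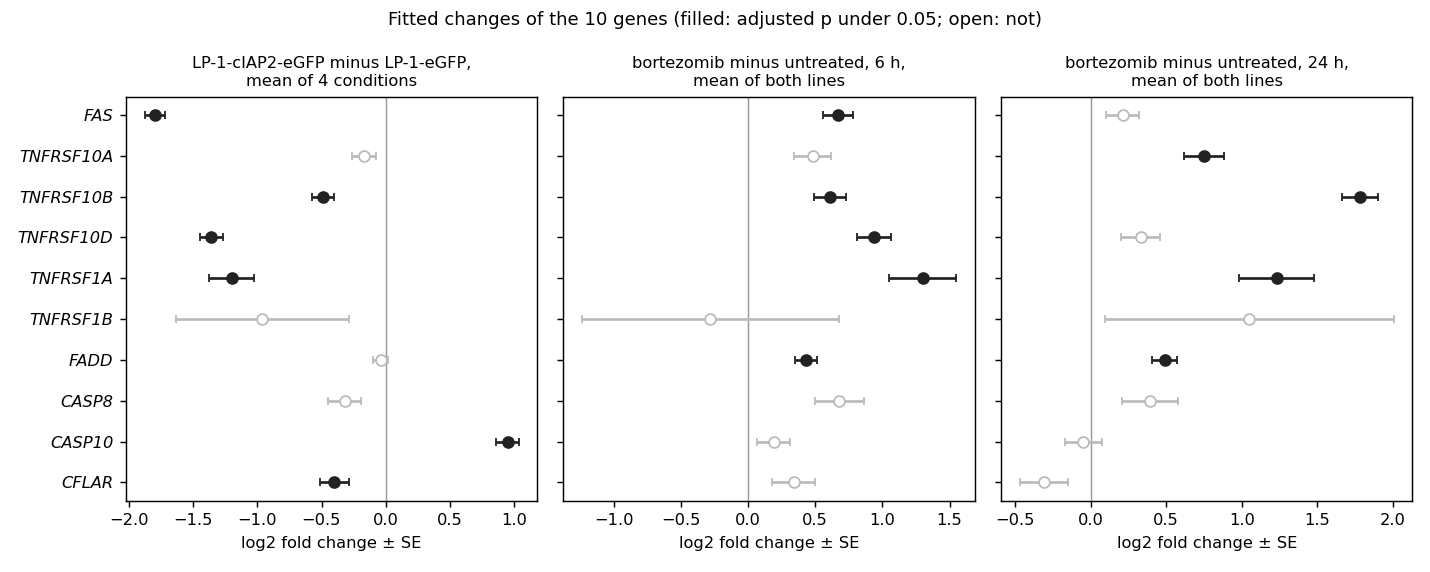
Fitted log2 fold changes with standard errors for LP-1-cIAP2-eGFP against LP-1-eGFP (left) and for bortezomib at 6 h (middle) and 24 h (right), the latter as means of both lines; filled points passed an adjusted p of 0.05. The line difference ranged from -1.80 for FAS to 0.95 for CASP10, and the largest response was that of TNFRSF10B at 24 h, 1.78.

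FAS encodes the receptor for FAS ligand. In LP-1-eGFP its normalized log2 signal was 12.37 and 12.34 in untreated cells at 6 h, 12.50 and 12.38 at 24 h, 13.11 and 13.02 at 6 h of bortezomib, and 12.76 and 12.53 at 24 h. The matching values in LP-1-cIAP2-eGFP were 10.62 and 10.47, 10.84 and 10.49, 11.17 and 11.21, and 10.80 and 10.97. All 8 arrays of one line thus lay below all 8 of the other, as was the case for 3.42% of genes. The difference was -1.80 (SE 0.0788, adjusted p = 5.33e-07) and varied between -1.76 and -1.88 among the 4 conditions. All 3 FAS probes were lower, with differences between -1.76 and -1.90. FAS rose with bortezomib at 6 h by 0.67 (SE 0.111, adjusted p = 0.00757). The rise was 0.71 in LP-1-eGFP against 0.64 in LP-1-cIAP2-eGFP, and it was not called in either line alone with all arrays (adjusted p = 0.0571 and 0.109). At 24 h the difference was 0.21 (adjusted p = 0.181). By mean signal the 4 LP-1-eGFP conditions ranked first, each above the next without overlap, an order not counted over all genes. They were followed by LP-1-cIAP2-eGFP at 6 h of bortezomib, whereas the ranges of its other 3 conditions overlapped with that of a neighbour.

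A window of 300 bases around a start site is shown for FAS, TNFRSF1A and FADD, of which the first 2 passed both between lines and with bortezomib, and FADD rose at both times. The sequences are those of RefSeq on GRCh38.p14, and capitals mark the GC box, GGGCGG on either strand, the element that SP1 binds. FAS lies on the plus strand (chr10:88990548-88990847), TNFRSF1A on the minus strand (chr12:6342027-6342326) and FADD on the plus strand (chr11:70203046-70203345).
FAS: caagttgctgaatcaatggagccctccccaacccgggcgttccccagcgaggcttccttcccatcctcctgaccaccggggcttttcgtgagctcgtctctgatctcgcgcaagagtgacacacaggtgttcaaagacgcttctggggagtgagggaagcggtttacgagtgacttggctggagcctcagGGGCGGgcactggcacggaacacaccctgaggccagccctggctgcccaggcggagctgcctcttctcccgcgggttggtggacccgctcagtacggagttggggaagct
TNFRSF1A: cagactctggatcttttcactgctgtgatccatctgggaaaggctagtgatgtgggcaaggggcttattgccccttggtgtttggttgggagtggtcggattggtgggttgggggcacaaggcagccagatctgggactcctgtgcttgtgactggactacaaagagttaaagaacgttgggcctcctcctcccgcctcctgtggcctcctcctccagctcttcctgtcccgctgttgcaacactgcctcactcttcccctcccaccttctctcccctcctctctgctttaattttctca
FADD: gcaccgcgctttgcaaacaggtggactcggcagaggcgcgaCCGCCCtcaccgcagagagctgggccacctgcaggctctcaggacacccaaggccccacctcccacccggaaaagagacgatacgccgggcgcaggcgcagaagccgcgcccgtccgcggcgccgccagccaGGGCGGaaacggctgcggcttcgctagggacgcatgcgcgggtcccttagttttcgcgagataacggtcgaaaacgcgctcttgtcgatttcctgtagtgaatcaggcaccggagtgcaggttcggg
Windows were at hand for 6 of the 10 genes, and for FAS, CASP8 and CFLAR for several start sites; CASP10, TNFRSF10A, TNFRSF10B and TNFRSF10D had none. FAS had 1 GC box in the window shown, FADD had 2 and TNFRSF1A had none, and 45% of 35116 promoter windows held at least 1. The NF-κB letters, GGGANN followed directly by TNCC, occurred in none of the windows of these 6 genes, nor did TGATGNAA, the element of ATF4 and DDIT3. They were present in 4.93% and 3.62% of all windows. The STAT letters, TTCNNNGAA, occurred among these genes only in a window of CASP8, as TTCCAAGAA, and in 7.66% of all windows. Both strands were searched, and a match describes letters, not binding.

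TNFRSF10D is a TRAIL receptor with a truncated death domain, which acts as a decoy. Its log2 signal in LP-1-eGFP was 10.03 and 10.16 in untreated cells at 6 h, 9.95 and 10.32 at 24 h, 11.01 and 11.19 with bortezomib at 6 h, and 10.28 and 10.31 at 24 h. In LP-1-cIAP2-eGFP it was 8.99 and 8.76, 8.49 and 8.56, 9.78 and 9.71, and 8.83 and 9.22. As for FAS, the lines did not overlap on any array. The difference was -1.36 (SE 0.0903, adjusted p = 8.64e-06) and reached adjusted p = 0.00567 or less in each condition. TNFRSF10D rose by 0.94 at 6 h of bortezomib (SE 0.128, adjusted p = 0.00292), which was 1.01 in LP-1-eGFP against 0.87 in LP-1-cIAP2-eGFP. The former lost its call with the slide as a block (1.04, adjusted p = 0.0654). After 24 h the change was 0.33 (adjusted p = 0.0727). Without the array that stood apart it was 0.43 and passed (adjusted p = 0.0163). Over the 16 arrays the signals of FAS and TNFRSF10D were correlated with r of 0.938, a description over arrays that share lines and treatments.

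TNFRSF10B encodes the TRAIL receptor also known as DR5, a full death receptor and a target of the stress factor DDIT3. In LP-1-eGFP its signal was 10.35 and 10.45 in untreated cells at 6 h, 10.75 and 10.33 at 24 h, 11.30 and 11.31 at 6 h of bortezomib, and 11.94 and 12.07 at 24 h. In LP-1-cIAP2-eGFP it was 10.11 and 9.98, 10.01 and 9.78, 10.44 and 10.28, and 12.07 and 11.92. The lines did not overlap in untreated cells or at 6 h of bortezomib, where the lowest LP-1-eGFP array was above the highest of the other line, and they overlapped at 24 h of bortezomib. Such separations within a condition were not counted over all genes. Bortezomib raised TNFRSF10B by 0.61 at 6 h (SE 0.119, adjusted p = 0.0160) and by 1.78 at 24 h (SE 0.119, adjusted p = 3.88e-06). At 6 h the rise was 0.91 in LP-1-eGFP (adjusted p = 0.0284) and 0.32 in LP-1-cIAP2-eGFP (adjusted p = 0.584). By 24 h it was 1.47 in LP-1-eGFP (adjusted p = 2.73e-04) and 2.10 in LP-1-cIAP2-eGFP (adjusted p = 3.00e-05). With the slide as a block the 6 h rise in LP-1-eGFP was 0.95 and no longer passed (adjusted p = 0.0654). The line difference was -0.94 at 6 h of bortezomib (adjusted p = 0.0150, or 0.0780 when slide was a block) and -0.01 at 24 h (adjusted p = 0.967). These gaps come from different arrays and the change between them was not tested. The difference between the lines' responses was -0.59 at 6 h (SE 0.238, adjusted p = 1) and 0.63 at 24 h (SE 0.238, adjusted p = 0.573), so neither passed. On average TNFRSF10B was lower by 0.49 in LP-1-cIAP2-eGFP (SE 0.0843, adjusted p = 0.00320).

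TNFRSF10A, the other TRAIL receptor with a death domain, differed little between the lines. Its signal in LP-1-eGFP was 9.44 and 9.40 in untreated cells at 6 h, 9.81 and 9.70 at 24 h, 9.91 on both arrays of 6 h bortezomib, and 10.72 and 10.64 at 24 h. In LP-1-cIAP2-eGFP it was 9.63 and 9.38, 9.43 and 9.63, 9.97 and 9.98, and 9.80 and 10.40. The lowest of the last pair came from the array that stood apart. The line difference was -0.17 (SE 0.0957, adjusted p = 0.308). TNFRSF10A rose by 0.75 at 24 h of bortezomib (SE 0.135, adjusted p = 0.00179), by 0.93 in LP-1-eGFP against 0.57 in LP-1-cIAP2-eGFP. The latter did not pass (adjusted p = 0.0510), whereas it was 0.87 without the array that stood apart (adjusted p = 0.00233). With normexp background correction the rise over both lines was 0.29 and was not called (adjusted p = 0.595). At 6 h the change was 0.48 (adjusted p = 0.0742). TNFRSF10A, TNFRSF10B and TNFRSF10D lie close together on chromosome 8, as does the decoy TNFRSF10C.

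TNFRSF1A encodes the main TNF receptor, which carries a death domain, and TNFRSF1B the second TNF receptor, which has none. TNFRSF1A was dim, and well above background on all 8 arrays of LP-1-eGFP but on 5 of 8 of LP-1-cIAP2-eGFP. In LP-1-eGFP the signal was 6.62 and 6.57 in untreated cells at 6 h, 6.07 and 6.75 at 24 h, 8.10 and 7.93 at 6 h of bortezomib, and 7.72 and 8.31 at 24 h. In LP-1-cIAP2-eGFP it was 4.79 and 5.56, 5.97 and 5.89, 5.99 and 6.72, and 6.55 and 7. Each LP-1-eGFP array was above both arrays of the other line in the same condition, which was not counted over all genes. The difference was -1.20 (SE 0.177, adjusted p = 0.00128). Bortezomib raised TNFRSF1A by 1.30 at 6 h (SE 0.250, adjusted p = 0.0154) and 1.23 at 24 h (SE 0.250, adjusted p = 0.00366). Its 6 h call was lost when any of 6 arrays was left out (1.11 to 1.34, adjusted p up to 0.0688), and its 24 h call with array weights (1.23, adjusted p = 0.0688). With normexp background correction the values were smaller but still called, -0.74 between the lines (adjusted p = 7.35e-04), 0.75 at 6 h (adjusted p = 0.0170) and 0.69 at 24 h (adjusted p = 0.00465).

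No change can be read from TNFRSF1B. Its brightest probe was at 10.46 on replicate 1 of LP-1-eGFP at 24 h of bortezomib and at 5.21 on replicate 2, and otherwise between 4.04 and 6.85. At 24 h of bortezomib the fitted change was 1.05 (SE 0.956, adjusted p = 0.441), and without the first of these arrays it was -0.26. The second probe fell in both lines, from 6.64 and 8.14 to 2.67 and 4.98 in LP-1-eGFP and from 6.59 and 6.67 to 3.84 and 2.69 in LP-1-cIAP2-eGFP. In the latter it was not well above background on either treated array, which makes the fall at least 1.44-fold. It was called over both lines (-3.46, adjusted p = 5.42e-04, and -3.75, adjusted p = 7.76e-04, without the array that stood apart), so the probes of this gene disagreed.

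FADD, the adaptor, was similar in the lines and rose with the drug. Its signal was between 14.78 and 14.87 on all 8 untreated arrays, between 15.21 and 15.30 on the 4 arrays of 6 h bortezomib and between 15.25 and 15.41 on those of 24 h. Every treated array was thus above every untreated one, and how many of all genes did so was not counted. The rise was 0.43 at 6 h (SE 0.0820, adjusted p = 0.0144) and 0.49 at 24 h (SE 0.0820, adjusted p = 0.00104). With arrays scaled to the 75th percentile it was 0.57 and 0.23 and passed at neither time (adjusted p = 0.0662 and 0.290), and the 6 h call was also lost with normexp (0.46, adjusted p = 0.0602) and with no filter on signal (adjusted p = 0.0710). The line difference was -0.04 (SE 0.0580, adjusted p = 0.735).

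The genes of CFLAR, CASP10 and CASP8 are neighbours on chromosome 2, and they did not move together. CASP10 was the only one of the 10 genes that was higher in LP-1-cIAP2-eGFP. In LP-1-eGFP its brightest probe gave 10.79 and 10.73 in untreated cells at 6 h, 11.54 and 11.29 at 24 h, 11.12 and 11.19 at 6 h of bortezomib, and 11.11 and 11.52 at 24 h. In LP-1-cIAP2-eGFP it gave 12.03 and 12.08, 12.11 and 12.28, 11.93 and 12.13, and 12.09 and 12.29. All 8 arrays of the latter were above all 8 of the control, as was the case for 1.18% of genes. The difference was 0.95 (SE 0.0870, adjusted p = 6.29e-05). A second probe gave 1.00 (adjusted p = 5.92e-04), but another, annotated to the same transcript as the brightest, gave 0.19 (SE 0.124, adjusted p = 0.373). With bortezomib the brightest probe changed by 0.19 at 6 h and -0.05 at 24 h as the mean of both lines. In LP-1-eGFP the change was 0.40 at 6 h (adjusted p = 0.415) and -0.10 at 24 h, in LP-1-cIAP2-eGFP it was -0.02 and 0.00, and none of these passed. The other probe of that transcript fell by 0.57 at 24 h (adjusted p = 0.0309). It changed by -0.38 without the array that stood apart (adjusted p = 0.0587) and by -0.49 with the slide as a block (adjusted p = 0.107), and the call was lost in both. With the probes of the gene averaged CASP10 fell by 0.36 at 24 h (adjusted p = 0.0270). In LP-1-cIAP2-eGFP alone that other probe changed at 24 h by -0.83 (adjusted p = 0.0333) and the second probe by -0.78 (adjusted p = 0.0492). In LP-1-eGFP they changed by -0.31 and -0.13 and did not pass. These probes were not fitted within a line without the array that stood apart.

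CASP8, the initiator caspase that acts in the complexes of FAS and the TRAIL receptors, passed in none of these comparisons. In untreated cells it lay between 9.85 and 10.71 on the 4 arrays of LP-1-eGFP and between 10.03 and 10.34 on the 4 of LP-1-cIAP2-eGFP, and these ranges overlapped. At 6 h of bortezomib it was 11.12 and 10.78 in LP-1-eGFP against 10.61 and 10.47 in LP-1-cIAP2-eGFP. At 24 h it was 11.32 and 10.90 against 10.01 and 10.58. The line difference was -0.32 (SE 0.131, adjusted p = 0.138). The change with bortezomib was 0.68 at 6 h (SE 0.185, adjusted p = 0.0667) and 0.39 at 24 h (adjusted p = 0.143). Without the array that stood apart both passed (0.68, adjusted p = 0.0258, and 0.53, adjusted p = 0.0447).

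CFLAR, the inhibitor of the complex, had 4 probes, and they disagreed. The brightest gave 12.45 and 12.46 in untreated LP-1-eGFP at 6 h, 13.06 and 12.65 at 24 h, 12.90 and 12.86 at 6 h of bortezomib, and 12.64 and 12.63 at 24 h. In LP-1-cIAP2-eGFP it gave 12.29 and 12.19, 12.46 and 12.41, 12.46 and 12.52, and 11.66 and 12.43. The control was higher in each condition without overlap, which was not counted over all genes. The difference was -0.40 (SE 0.114, adjusted p = 0.0380), and this call was lost when any of 13 arrays was left out and with the slide as a block (-0.42, adjusted p = 0.128). It was also lost with the 75th percentile (-0.38, adjusted p = 0.0936), normexp (-0.43, adjusted p = 0.0836), no filter on signal (-0.40, adjusted p = 0.0805), probes averaged (-0.19, adjusted p = 0.247) and untreated arrays alone (-0.32, adjusted p = 0.344). The other 3 probes gave -0.49, -0.01 and 0.15, none of which passed. Without the array that stood apart the first of them gave -0.31 and passed (adjusted p = 0.0235), and its change at 24 h of bortezomib went from -0.65 to -0.29, while at 6 h it was 0.49 and passed (adjusted p = 0.0196). At 24 h of bortezomib the brightest probe changed by -0.31 (adjusted p = 0.179), and by -0.11 without the array that stood apart. Of 2 probes annotated to one transcript variant, one fell by 0.51 (adjusted p = 0.0201) and one rose by 1.04 (adjusted p = 0.0138). Without the array that stood apart they were -0.43 (adjusted p = 0.0448) and 0.72 (adjusted p = 0.0178). With the slide as a block the fall no longer passed (-0.49, adjusted p = 0.0645).

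**Figure D3:**
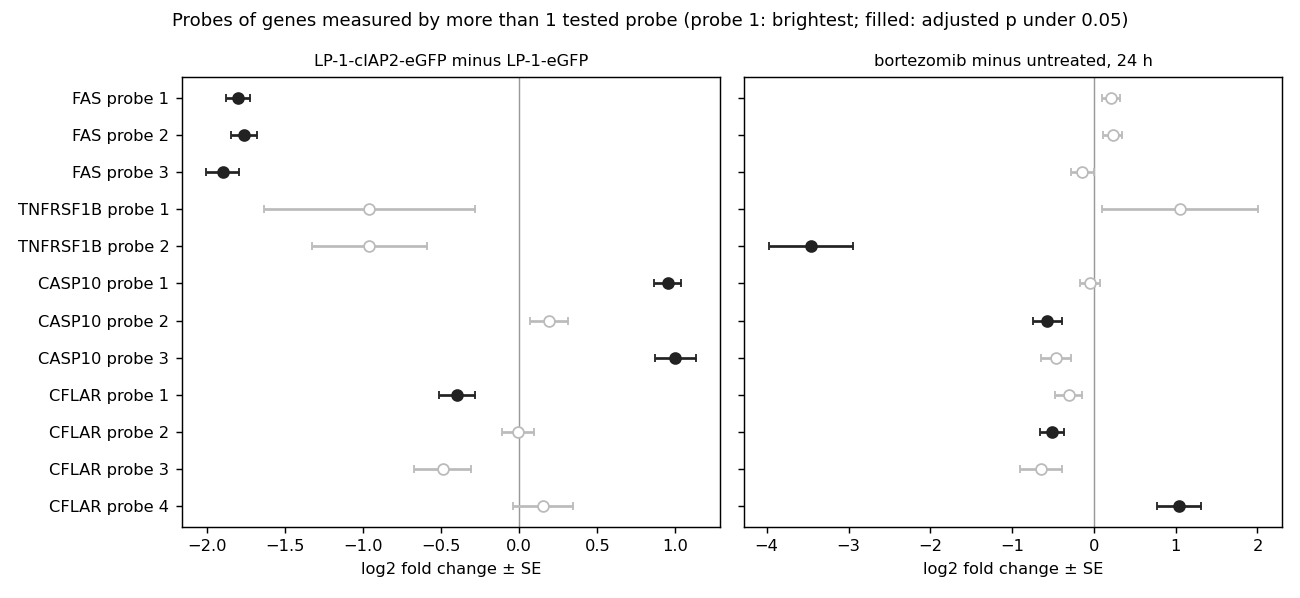
Log2 fold changes with standard errors of all tested probes of the 4 genes with more than 1, for the line difference (left) and for bortezomib at 24 h (right); probe 1 is the brightest and filled points passed an adjusted p of 0.05. The 3 FAS probes agree within -1.76 to -1.90 between the lines, whereas the CFLAR probes at 24 h lie between -0.65 and 1.04.

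The second question was how the genes responded to bortezomib. At 6 h 5 of the 10 genes rose, TNFRSF1A, TNFRSF10D, FAS, TNFRSF10B and FADD, and none fell, against 4.45% of all genes that rose and 3.93% that fell. With array weights, and without either array of LP-1-cIAP2-eGFP at 24 h of bortezomib, TNFRSF10A, CASP8 and CFLAR passed as well. Without replicate 1, the array that stood apart, their values were 0.48 (adjusted p = 0.00648), 0.68 (adjusted p = 0.0258) and 0.34 (adjusted p = 0.0499). The calls shrank to FAS and TNFRSF10D without either LP-1-eGFP array of the untreated cells at 6 h, without either of its arrays of 6 h bortezomib, or without replicate 1 of untreated LP-1-cIAP2-eGFP at 6 h. They numbered 3 without replicate 2 of that group or of LP-1-cIAP2-eGFP at 6 h of bortezomib. At 24 h 4 of the 10 rose, TNFRSF10B, TNFRSF1A, TNFRSF10A and FADD, and none fell by its brightest probe, against 19.2% and 25% of all genes. With the probes of a gene averaged CASP10 was called lower (-0.36, adjusted p = 0.0270). The median change of the 10 genes was 0.55 at 6 h and 0.44 at 24 h, against -0.03 and -0.09 over all genes. Scaling to the 75th percentile moved the median of all probes at 24 h from -0.09 to 0.13. TNFRSF10B, TNFRSF1A and FADD thus passed at both times, FAS and TNFRSF10D at 6 h, and TNFRSF10A at 24 h. The comparisons at 6 h and 24 h share no arrays.

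At 24 h of bortezomib all 9 plasma cell markers fell over both lines, from 0.97 for NSD2 to 2.74 for FGFR3, and SDC1 fell by 2.46. Among markers of other cells COL1A1 fell by 1.22 (adjusted p = 0.0487). Between the lines 3 of the 9 plasma cell markers were higher in LP-1-cIAP2-eGFP, SDC1 by 1.42, FGFR3 by 0.64 (adjusted p = 0.0295) and MZB1 by 0.50 (adjusted p = 0.00750). CD38 was lower (-0.55, adjusted p = 0.00279) and the other 5 did not pass. CD3D was lower too (-1.14, adjusted p = 0.0460). The calls of COL1A1 and CD3D were lost with the slide as a block (adjusted p = 0.0803 and 0.182). The part of these shifts in the results above was not tested.

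**Figure D4:**
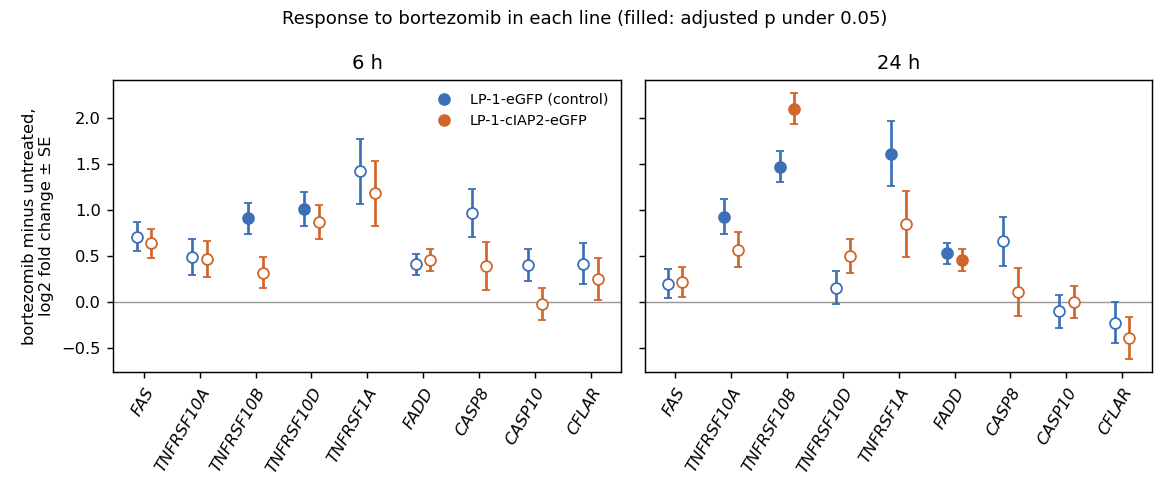
Bortezomib against untreated cells in each line at 6 h (left) and 24 h (right), as log2 fold change with standard error; filled points passed an adjusted p of 0.05, and TNFRSF1B is left out because its probes disagreed. TNFRSF10B rose by 0.91 in LP-1-eGFP at 6 h against 0.32 in LP-1-cIAP2-eGFP, and by 1.47 against 2.10 at 24 h.

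The third question was whether the lines responded differently. In LP-1-eGFP alone TNFRSF10B and TNFRSF10D passed at 6 h (1.95% of all probes), and TNFRSF10A, TNFRSF10B, TNFRSF1A and FADD at 24 h (21%). Both of these 6 h calls were lost with the slide as a block (adjusted p = 0.0654 for each). Of the responses of LP-1-cIAP2-eGFP none passed at 6 h (1.09%), and TNFRSF10B and FADD passed at 24 h by their brightest probes (28.6%). At the looser limit of an unadjusted p under 0.05, to which the 1.09% does not apply, 5 passed at 6 h. When the array that stood apart was left out, FAS (0.71, adjusted p = 0.0225), TNFRSF10A (0.49, adjusted p = 0.0448), FADD (0.41, adjusted p = 0.0360) and CASP8 (0.97, adjusted p = 0.0422) also passed at 6 h in LP-1-eGFP. FAS (0.64, adjusted p = 0.0430), TNFRSF10D (0.87, adjusted p = 0.0169) and FADD (0.46, adjusted p = 0.0325) then passed in LP-1-cIAP2-eGFP, and at 24 h TNFRSF10A (0.87, adjusted p = 0.00233) and TNFRSF10D (0.70, adjusted p = 0.0193) did so too. A call in one line only does not show a difference. The test of the difference itself called none of the 10 at 6 h, when it called 0.00297% of all probes, and none at 24 h, when it called 0.0712% (limma; at an unadjusted p under 0.05 it was 1 of 10, TNFRSF10B, at each time). Both tests use the untreated arrays that also enter the line differences. Between the collection times without the drug none of the 10 passed, as for all but 0.0089% of probes, and 1 had an unadjusted p under 0.05, CASP10 (0.40, adjusted p = 0.813). For none of these counts at an unadjusted p was the share of all probes counted.

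The other genes of the pathway were examined as 5 lists, whose counts stand beside the shares of all genes given above, 9.04% higher and 12.7% lower between the lines, 4.45% and 3.93% at 6 h of bortezomib, and 19.2% and 25% at 24 h. Of 6 ligands, FASLG, TNFSF10 and LTB had no probe that passed the filter on signal, and TNF, LTA and TNFSF15 passed in none of these comparisons. Of 7 other receptors and decoys 5 could be tested. The decoy TNFRSF10C was lower in LP-1-cIAP2-eGFP (-1.70, SE 0.299, adjusted p = 0.00363), as was TNFRSF25, a death receptor for TNFSF15 (-1.17, adjusted p = 5.37e-04). TNFRSF21, another receptor with a death domain, was higher by 0.49 and fell with bortezomib by 1.04 at 6 h and 1.44 at 24 h, whereas TNFRSF25 rose at 24 h by 0.72 (adjusted p = 0.0242).

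Of 18 adaptors, kinases and ubiquitin ligases 17 could be tested. In LP-1-cIAP2-eGFP 2 were higher, RIPK1 by 0.44 (SE 0.0641, adjusted p = 0.00111) and TRADD by 0.24 (adjusted p = 0.0350, or 0.0871 when slide was a block), and TRAF2, the partner of cIAP2 in TNF receptor signalling, was lower by 0.67 (SE 0.124, adjusted p = 0.00458). DEDD2, a nuclear protein with a death effector domain, was the only one that rose at 6 h of bortezomib, by 2.35 (SE 0.160, adjusted p = 8.80e-05). It went from 11.62 and 11.63 to 14.18 and 14.08 in LP-1-eGFP and from 11.32 and 11.42 to 13.58 and 13.55 in LP-1-cIAP2-eGFP. At 24 h 7 of the 17 rose and 2 fell, where 19.2% and 25% of all genes did. The rises were led by DEDD2 by 2.55 and BIRC2 by 1.07, and RIPK1 rose by 0.70. CRADD fell by 1.23 and TNFAIP3, the ubiquitin-editing enzyme A20, by 0.57. The medians of this list were -0.15 between lines and 0.22 at 24 h of bortezomib.

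Of the downstream genes 9 are reported, and all were tested. The effector caspase CASP6 was higher in LP-1-cIAP2-eGFP by 0.75 (SE 0.0796, adjusted p = 1.72e-04), and none of the other 8 passed between the lines. CASP9, which starts the mitochondrial pathway, rose by 0.97 at 24 h of bortezomib, while CYCS, CASP2 and CASP1 fell, CYCS by 1.31. The call of CASP1 was lost with the slide as a block (-0.45, adjusted p = 0.0809). None of the 9 passed at 6 h.

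Of 9 regulators known to act on these receptors 2 were lower in LP-1-cIAP2-eGFP, IRF1 and RELB, and 3 were higher, NFKB1, YY1 and SP1, the last of which was not called with the slide as a block (0.35, adjusted p = 0.0556). NFKB1, a subunit of NF-κB, was higher by 0.61 (SE 0.0749, adjusted p = 4.15e-04). The stress factors ATF3 and DDIT3 rose the most with bortezomib, by 3.16 and 2.73 at 6 h and by 5.67 and 4.08 at 24 h, and ATF4 rose by 0.62 and 0.80. RELB and RELA rose at 24 h by 0.84 and 0.73, and SP1 and NFKB1 fell. In a fit that left out the array that stood apart, no call from the 5 lists was lost and others were gained, 7 between the lines, 5 at 6 h and 4 at 24 h, among them CRADD between the lines (-0.27, adjusted p = 0.00813), CASP6 at 6 h (-0.40, adjusted p = 0.0218), TRADD at 24 h (0.27, adjusted p = 0.0174) and IRF1 at 6 h (0.58, adjusted p = 0.0135) and 24 h (0.54, adjusted p = 0.00995). In the difference between the lines' responses at 24 h none of the genes reported from the 5 lists passed.

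**Figure D5:**
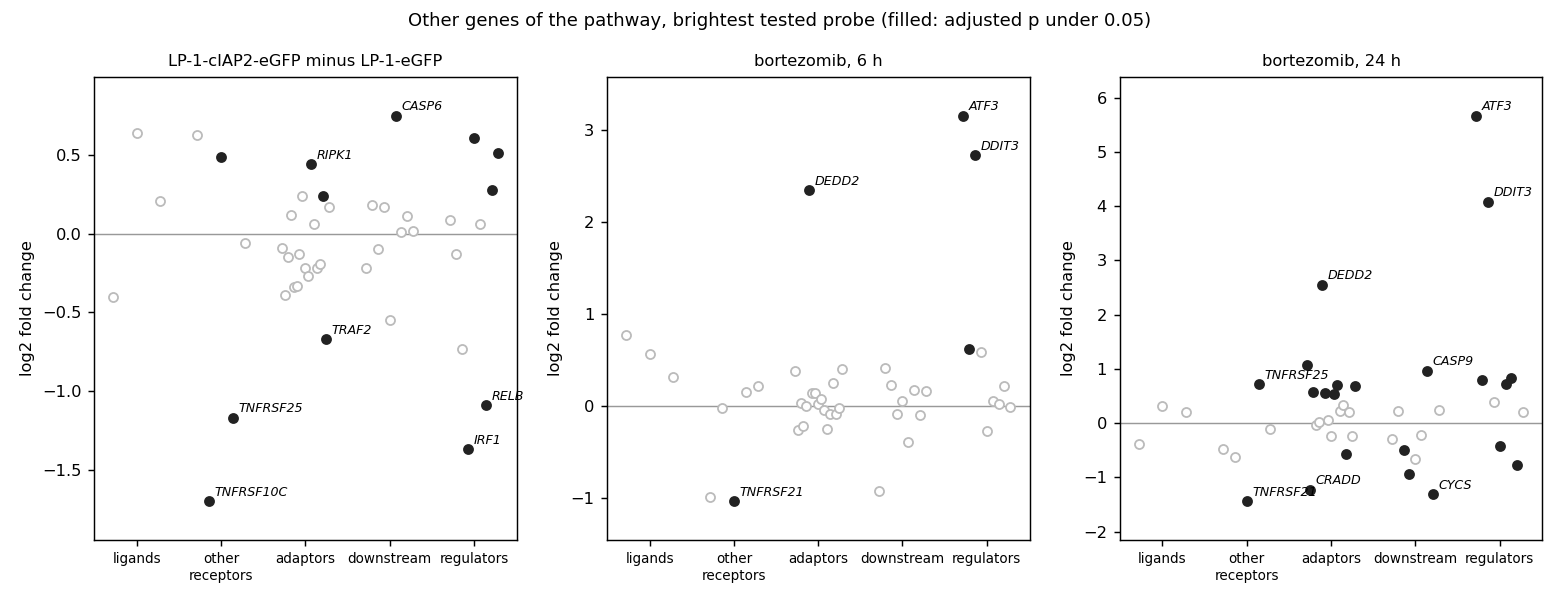
Log2 fold change of the tested genes reported from the 5 lists (brightest probe; points are genes) for the line difference, bortezomib at 6 h and bortezomib at 24 h; filled points passed an adjusted p of 0.05 and at most 2 per list are named. ATF3, DDIT3 and DEDD2 stand above the others at both times of bortezomib, with 5.67, 4.08 and 2.55 at 24 h.

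The genes whose signal followed FAS most closely over the 16 arrays, among 9684 genes above background on all of them, were PHGDH (Pearson r = 0.986), HNRNPU (r = 0.967) and PKM (r = 0.967). Those closest to TNFRSF10B were ZBTB43 (r = 0.976), PARP14 (r = 0.975) and EIF4B (r = 0.972), and those closest to CFLAR were SLC43A1 (r = 0.962), C2orf42 (r = 0.912) and ZBTB5 (r = 0.909). The arrays share lines and treatments, so that these values describe a common pattern over conditions.

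Arrays were run on 2 slides, each of which held both lines, but treatment and line were not spread evenly. All 4 bortezomib arrays of LP-1-cIAP2-eGFP were on slide 1, and both 6 h bortezomib arrays of LP-1-eGFP were on slide 2, which held only 2 arrays of LP-1-cIAP2-eGFP, both untreated. At 6 h of bortezomib slide and line could therefore be separated only through the other conditions. With the slide as a block the calls lost among the brightest probes were the line difference of CFLAR, those of TNFRSF10B (-0.52, adjusted p = 0.0511) and TNFRSF1A (-0.87, adjusted p = 0.0886) over untreated arrays alone, those of TNFRSF10B, TNFRSF1A and CASP10 at 6 h of bortezomib and of CASP10 in untreated cells at 24 h, and the 6 h rises of TNFRSF10B and TNFRSF10D in LP-1-eGFP. Among the other probes the 24 h falls of 1 CASP10 and 1 CFLAR probe over both lines were lost, as given above. Averaged over conditions the line differences of FAS (-1.89), TNFRSF10D (-1.40), TNFRSF1A (-1.03), TNFRSF10B (-0.53) and CASP10 (1.04) still passed. The first slide held both lines only in untreated cells at 6 h and at 24 h of bortezomib, and the second only in untreated cells. Differences within a slide thus cover fewer conditions than these averages. Within the first slide alone they were -1.81, -1.21, -1.30, -0.12 and 1.17, and within the second -1.93, -1.45, -0.75, -0.60 and 1.04. The latter passed for FAS and TNFRSF10D, and none passed within the first slide, which held 2 arrays of LP-1-eGFP. None of the 6 h responses passed within a slide, where 0% and 0.0208% of all probes passed. The treated arrays at 6 h were LP-1-cIAP2-eGFP alone on slide 1 and LP-1-eGFP alone on slide 2. The fitted change on these slides was 0.61 and 0.68 for FAS and 0.14 and 0.85 for TNFRSF10B. The rise of TNFRSF10B at 24 h was 1.93 and 1.59 within the slides, and the fitted change of TNFRSF1A 0.69 and 1.83, of which the second value passed for each.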

How the data were processed

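RNA of the 16 LP-1 cultures was hybridized to single-colour Agilent arrays by the authors, who scanned them with Agilent Feature Extraction 10.7.3.1 and quantile normalized the values. The deposited scanner files hold each spot's background-corrected signal as a linear intensity. A deposited table of normalized log2 values, centred on each probe by the authors, served as an alternative. The array files name no genome build.

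From the intensities, log2 was taken, spots flagged as outliers were left out, spots of a probe were averaged and arrays were quantile normalized. A probe was kept where some condition had both of its arrays well above background (33731 of 50599 probes). limma 3.58.1 in R 4.3.3 fitted a mean per condition, with Benjamini-Hochberg adjustment over all kept probes and calls at an adjusted p under 0.05. Array number limits the precision. Fits were tested on simulated data. Probes were named by RefSeq accession through the GRCh38.p14 annotation (28174 matched). Replicate numbers did not pair the samples.

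Every gene of the group is named, with at most the 4 largest called changes per list and comparison. TNFAIP3, CASP1, RELA, SP1 and YY1 were named after their values were seen, where a short count is spelled out. Members and lists were chosen with earlier results of these data known. Fits of the lists, markers and further probes without the array that stood apart and with the slide as a block were added after seeing the data. Alternatives changed the background correction, scaling, filter, source table, model, blocks, weights, probes, call rule and arrays. The table's centring leaves its absolute level unknown. Some genes of the lists and markers are not reported here.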

Additional observations from a re-analysis of the deposited data

Results flagged for a closer look

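For TNFRSF10A the order of the arrays of the lines was not the same in all conditions. Both LP-1-cIAP2-eGFP arrays lay above both LP-1-eGFP arrays at 6 h of bortezomib, by 0.06 on the log2 scale, and below them in untreated cells at 24 h, by 0.22, and at 24 h of bortezomib, by 0.58. Without the array that stood apart the last difference was -0.28. None of these differences passed in its condition, and such orders were not counted over all genes. At 6 h of bortezomib each line lay on a slide of its own, and with the slide as a block the difference was 0.04. The difference between the 6 h and 24 h conditions was not tested, while the change from untreated cells to bortezomib at 24 h differed between the lines by -0.36 (limma, adjusted p = 0.643).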

How the results depend on the processing

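The 5 differences between lines other than that of CFLAR, averaged over conditions, were called at an adjusted p under 0.05 in the limma and ANOVA fits that used all conditions or the untreated arrays of both slides, where the gene was tested, and in all 16 fits without 1 array. The exceptions were TNFRSF10B (-0.52, adjusted p = 0.0511) and TNFRSF1A (-0.87, adjusted p = 0.0886) in untreated cells with the slide as a block. The rule of the Methods left out TNFRSF10B and TNFRSF1A, and the comparison of groups of 8 arrays left out TNFRSF10B and CASP10. The number of the 10 genes called between lines was 6, and 5 with the 75th percentile, normexp, no filter on signal, the slide as a block, probes averaged and untreated arrays alone (without CFLAR) and where every array had to be well above background (TNFRSF1A not tested), 0 with the arrays of slide 1 alone, 2 with those of slide 2 alone, 3 by the rule of the Methods, and 5 to 8 without 1 array. At 6 h of bortezomib it was 5, and 4 with the 75th percentile and normexp (without FADD), 3 with no filter on signal (FAS, TNFRSF10D and TNFRSF1A), 6 of 8 tested where every array had to be well above background (with TNFRSF10A and CASP8), 8 with array weights, 0 with either slide alone, 1 when more than 2-fold was asked for, and 2 to 8 without 1 array. At 24 h it was 4, and 3 with the 75th percentile (without FADD), normexp (without TNFRSF10A), array weights (without TNFRSF1A) and slide 2 alone (without FADD), 5 with probes averaged (with CASP10, -0.36, adjusted p = 0.0270), 4 of 8 tested where every array had to be well above background (with TNFRSF10D, adjusted p = 0.0249), 0 with slide 1 alone, 2 with the 2-fold rule, and 4 to 6 without 1 array. For the difference between the lines' responses at 24 h it was 0, and 0 to 1 without 1 array. The 1 was TNFRSF10A, without replicate 2 of LP-1-cIAP2-eGFP at 24 h of bortezomib, which leaves that condition to the array that stood apart, assumed to vary like the others. The shares of all tested probes moved as well. Between the lines 16.1% passed, against 32.9% where every array had to be well above background. On slides 1 and 2 alone it was 0.0089% and 3.71%. At 6 h 5.93% passed, against 18.8% with array weights, 20.6% with that filter and 0% and 0.0208% on the slides. At 24 h 34.8% passed, against 23.2% with array weights and 62.3% with that filter. The causes were not tested.

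With the replicate number as a block, which the data did not show to pair the samples (correlations of replicate differences from -0.113 to 0.236 over 28 pairs of conditions), 6, 6, 4 and 0 genes were called. The addition was CASP8 at 6 h (0.68, adjusted p = 0.0475).

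None of the values that changed sign was called. FADD, line averaged, was 0.05 with normexp. TNFRSF1B, bortezomib 6 h, was 0.68 on slide 1 and -0.71 to 0.15 without 1 array. TNFRSF1B, bortezomib 24 h, was -1.21 with probes averaged, -0.78 on slide 2 and -0.26 to 2.36 without 1 array, the last of which was called and rested on the single array at 10.46. CASP10, bortezomib 24 h, was 0.03 with the slide as a block, 0.11 and 0.16 on the slides and -0.16 to 0.05 without 1 array. For the difference between the lines' responses at 24 h, FAS was -0.13 with probes averaged and -0.16 to 0.19 without 1 array, and FADD was 0.28 with normexp. CASP10 was -0.01 with the 75th percentile, -0.04 with normexp, -0.36 with probes averaged and -0.11 to 0.30 without 1 array. Without 1 array TNFRSF1B ranged from -4.66 to 0.59 and CFLAR from -0.55 to 0.21.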
